A study of Mus musculus with 12 samples.

Results

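Tpsb2, Tpsab1, Tpsg1, Prss34 and Cpa3 encode proteases of mast cells, and their transcripts were followed here over 12 arrays labelled as cultured mast cells. They are 5 of the 19938 genes measured. They were chosen by name, with earlier results of these data known. A probe set counted where the platform annotation gave it exactly 1 symbol and that symbol was 1 of the 5. All 5 were found, each with 1 probe set, so no choice among probe sets was needed. The probe sets were 10442786 for Tpsb2, 10448916 for Tpsab1, 10442801 for Tpsg1, 10442762 for Prss34 and 10497451 for Cpa3.

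Mast cells store proteases in secretory granules, bound to the heparin chains of the proteoglycan serglycin, and release them when the high-affinity IgE receptor is crosslinked. Tryptases cut after basic residues and act as tetramers, chymases cut after aromatic residues, and the carboxypeptidase removes residues from the C-terminal end. Tpsb2 encodes mMCP-6, the main soluble tryptase of connective tissue mast cells of the mouse, and Tpsab1 encodes mMCP-7, another soluble tryptase. C57BL/6 mice make no mMCP-7 protein because of a splice site mutation, and RefSeq lists their Tpsab1 as a transcribed pseudogene. Tpsg1 encodes tryptase gamma, which stays anchored in the membrane. Prss34 encodes mMCP-11, a tryptase-like protease known from basophils and from early cultured mast cells. Cpa3 encodes mast cell carboxypeptidase, which is stored together with the chymase mMCP-5, the product of Cma1.

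Per the labels, the arrays came from bone marrow derived mast cells, which are marrow cells grown with stem cell factor and interleukin 3. There were 4 groups of 3 arrays: ACKR2-/- (also called D6-/-) and wild type C57BL/6 at 10 weeks of culture, and the same genotypes at 2 weeks. The labels give C57BL/6 as the strain of both genotypes, and describe the marrow donors as female mice aged 4 to 6 weeks. ACKR2 is an atypical chemokine receptor that takes up inflammatory CC chemokines, and the deletion is not described further in the labels. All cultures received both growth factors, and some 2-week cultures were enriched for CD117, the stem cell factor receptor, without the labels saying which. The labels give each array a biological replicate number but name no animal or culture, so the spread and the p-values are those between these arrays. Values are log2 signals, and a difference of 1 is a factor of 2.

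Of the 12 arrays, 4 went against their labels: the 3 ACKR2-/- 2-week arrays and wild type 2-week array 3. Over 9 measured mast cell marker genes, none of them a member, the mean log2 level was 7.37 to 7.56 on these 4 arrays and 12.64 to 13.01 on the other 8. B cell markers (6 genes) averaged 10.0 to 12.9 on the 4 arrays and 6.18 to 6.71 on the other 8, and T and NK cell markers (8 genes) 8.67 to 11.3 on the 4 and 6.52 to 6.98 on the 8. The 4 arrays were not all alike. ACKR2-/- 2-week array 3 had B cell markers at 12.9 and T and NK cell markers at 8.67. The rest of the 4 had B cell markers at 10.0 to 10.2 and T and NK cell markers at 11.2 to 11.3. Xist, the transcript that silences an X chromosome in female cells, read 5.77 to 6.23 on the 4 arrays and 13.00 to 13.37 on the others, while the Y-linked Eif2s3y read 10.6 to 11.2 on the 4 arrays and 4.42 to 4.61 on the others. Groups are therefore named as the arrays carry their labels. Ackr2 did not check the genotype. Its probe set read 8.16 to 8.35 on the ACKR2-/- 10-week arrays and 7.88 to 8.35 on the wild type 10-week arrays, and 7.79 to 9.43 on the ACKR2-/- 2-week arrays and 8.19 to 8.38 on the wild type 2-week arrays. Whether it lies in the deleted part is not given in the sources used here.

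**Figure D1:**
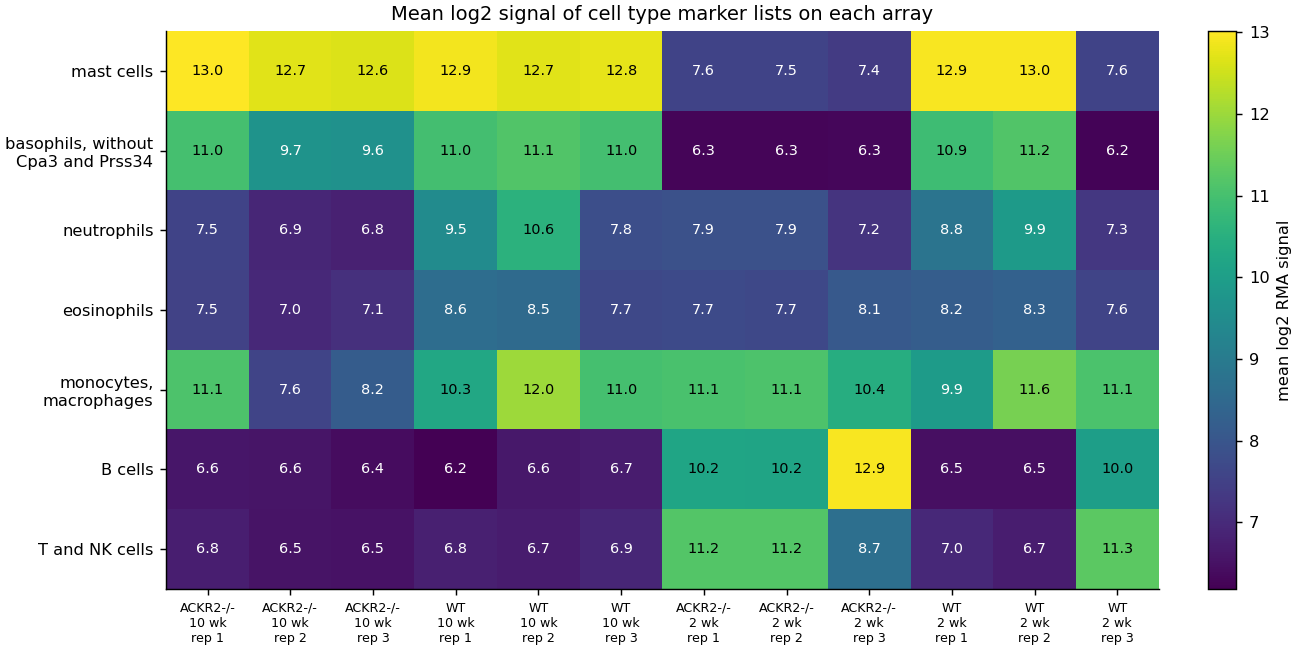
Mean log2 RMA signal of cell type marker lists (rows) on each of the 12 arrays (columns, grouped by genotype and week of culture); the basophil row leaves out Cpa3 and Prss34. The mast cell row lies between 7.37 and 7.56 on the ACKR2-/- 2-week arrays and wild type 2-week array 3. These arrays are also the highest in the B cell row and in the T and NK cell row. Among them ACKR2-/- 2-week array 3 is highest in the B cell row, at 12.9, and lowest in the T and NK cell row, at 8.67.

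The 4 tryptase genes lie together on chromosome 17 in the RefSeq annotation of the mouse assembly GRCm38.p6. Their order is Prss34, Prss28, Prss29, Tpsab1, Tpsb2 and Tpsg1, followed by the calcium channel gene Cacna1h, with some unmeasured small RNA and pseudogene entries between them. Cpa3 lies apart on chromosome 3, between Gyg and the carboxypeptidase gene Cpb1. Members of such a family can share probes, so the values of the tryptases are uncertain to that extent.

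Promoter sequences are shown for the members that had windows, Cpa3, Tpsg1 and Prss34, which were not chosen among the 5 by their values. All 3 were low on the 4 arrays apart, while on ACKR2-/- 10-week arrays 2 and 3 Prss34 was low and the other 2 genes were high. Whether the motifs bear on these values was not tested. The motifs are of kinds bound by factors of the mast cell lineage. RefSeq (GRCm38.p6) gave windows for 3 of the 5 members, Cpa3, Prss34 and Tpsg1, and the 250 bases before each annotated start are printed 5′ to 3′ on the gene's strand. They are chr3:20242182-20242431 on the minus strand for Cpa3, and chr17:25298144-25298393 and chr17:25369023-25369272 on the plus strand for Prss34 and Tpsg1. Capitals mark matches to the letters AGATAA or TGATAA, bound by GATA factors, and CACATG or CACGTG, E-boxes of the kind bound by MITF, on either strand.
Cpa3: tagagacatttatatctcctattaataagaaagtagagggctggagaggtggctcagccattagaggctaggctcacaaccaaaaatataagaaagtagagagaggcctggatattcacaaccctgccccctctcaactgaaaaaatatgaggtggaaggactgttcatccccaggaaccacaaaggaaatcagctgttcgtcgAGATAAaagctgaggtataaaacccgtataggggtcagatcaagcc
Prss34: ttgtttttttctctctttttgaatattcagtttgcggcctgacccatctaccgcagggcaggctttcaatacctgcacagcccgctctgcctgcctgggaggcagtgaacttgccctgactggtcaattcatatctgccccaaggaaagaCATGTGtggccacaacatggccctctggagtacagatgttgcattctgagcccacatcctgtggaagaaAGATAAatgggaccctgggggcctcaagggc
Tpsg1: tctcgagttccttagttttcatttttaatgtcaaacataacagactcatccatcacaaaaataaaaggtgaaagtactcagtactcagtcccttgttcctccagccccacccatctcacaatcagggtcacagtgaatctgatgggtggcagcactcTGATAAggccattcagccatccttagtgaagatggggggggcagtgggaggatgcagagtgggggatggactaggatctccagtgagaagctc
In Cpa3 and Prss34 the match AGATAA began 46 and 31 bases before the start, and in Tpsg1 the match TGATAA began 93 bases before it. Prss34 also held CACATG on the other strand, written CATGTG above, 100 bases before the start. Of 32851 RefSeq windows of the same length, 16.6% held AGATAA or TGATAA, 9.988% AGATAA and 7.942% TGATAA, while 17.62% held either E-box, 12.25% CACATG and 6.021% CACGTG. Another annotated start of Tpsg1 had none of these letters in its window.

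Among the soluble tryptases, Tpsb2 read 12.29, 11.06 and 10.93 on ACKR2-/- 10-week arrays 1, 2 and 3, and 12.19, 12.02 and 12.04 on wild type 10-week arrays 1, 2 and 3. It read 6.83, 6.63 and 6.80 on the ACKR2-/- 2-week arrays, and 12.05, 12.04 and 6.73 on the wild type 2-week arrays. The gene was high on 8 arrays and low on the 4 with low mast cell markers. At 10 weeks the genotypes overlapped, because ACKR2-/- array 1 lay above all wild type arrays and ACKR2-/- arrays 2 and 3 below them.

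Tpsab1 read 10.02, 7.48 and 7.45 on the ACKR2-/- 10-week arrays, and 8.89, 9.58 and 9.65 on the wild type 10-week arrays. At 2 weeks it read 7.06, 7.17 and 7.13 on the ACKR2-/- arrays, and 8.84, 9.35 and 7.22 on the wild type arrays. ACKR2-/- 10-week arrays 2 and 3 were therefore close to the 4 arrays apart, with only 0.22 between the lowest of the 8 other arrays and the highest of the 4. For Tpsb2 the same gap was 4.10. The arrays measure the Tpsab1 transcript and say nothing of its protein.

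Tpsg1, the membrane-anchored tryptase, read 12.41, 12.15 and 11.70 on the ACKR2-/- 10-week arrays, and 12.56, 12.18 and 12.44 on the wild type 10-week arrays. It read 7.01, 6.92 and 6.66 on the ACKR2-/- 2-week arrays, and 12.48, 12.24 and 6.84 on the wild type 2-week arrays. The 8 arrays with mast cell markers lay within 0.86 of each other and 4.69 above the 4 others, and the 10-week genotypes overlapped.

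Prss34, the mMCP-11 gene, read 11.30, 7.52 and 7.51 on the ACKR2-/- 10-week arrays, and 12.68, 12.43 and 12.26 on the wild type 10-week arrays. At 2 weeks it read 7.21, 6.97 and 7.02 on the ACKR2-/- arrays, and 12.29, 11.76 and 6.79 on the wild type arrays. All 3 ACKR2-/- arrays lay below all 3 wild type arrays at 10 weeks. ACKR2-/- 10-week array 3, the lowest of the 8 arrays with mast cell markers, was only 0.30 above the highest of the 4 others, and ACKR2-/- array 1 lay between it and wild type.

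Cpa3, the carboxypeptidase gene, read 14.28, 14.22 and 14.27 on the ACKR2-/- 10-week arrays, and 14.14, 13.86 and 13.63 on the wild type 10-week arrays. It read 6.40, 6.45 and 6.49 on the ACKR2-/- 2-week arrays, and 14.14, 14.26 and 6.20 on the wild type 2-week arrays. Its 8 high values spanned 0.65 and stood 7.14 above the 4 low ones, the widest gap of the 5 genes. At 10 weeks all ACKR2-/- arrays lay above all wild type arrays, by a small margin.

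**Figure D2:**
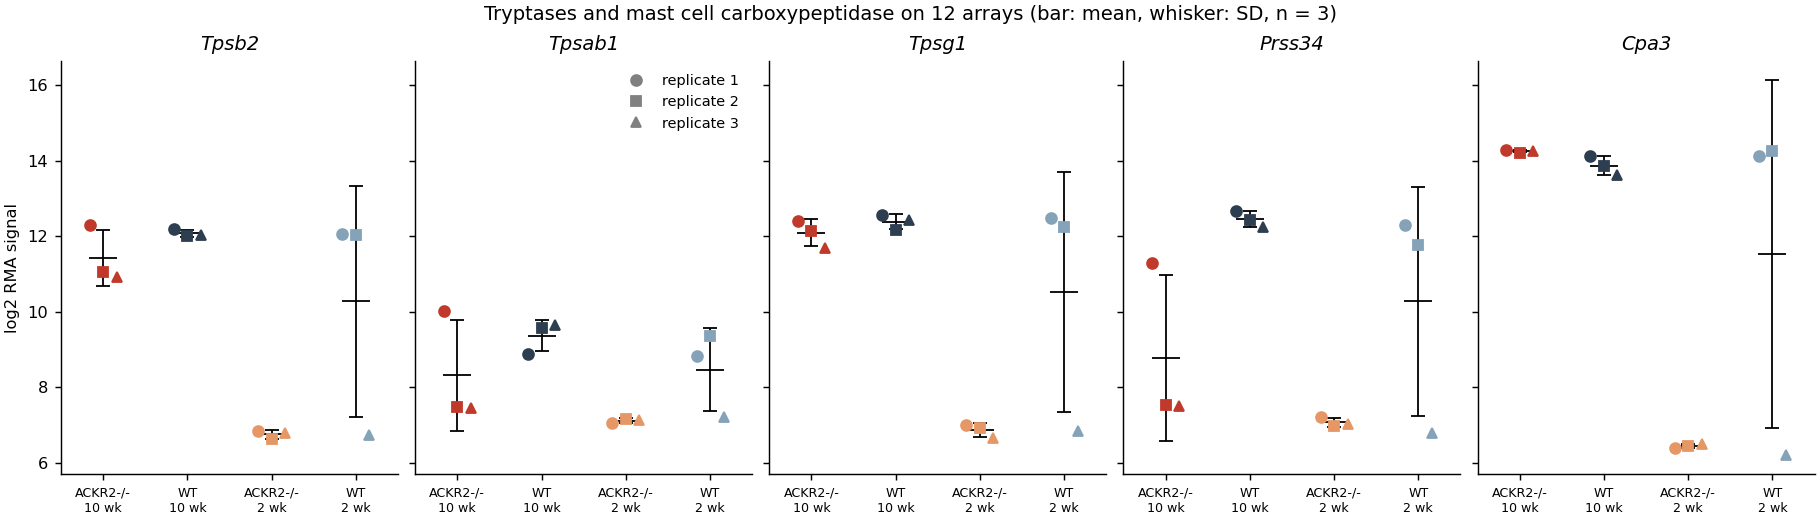
Log2 RMA signal (vertical axis) of the 5 protease genes on every array, by genotype and week of culture; symbols are arrays 1 to 3, horizontal bars the mean and whiskers the SD (n = 3). The wide whiskers of the wild type 2-week group come with array 3, which reads between 6.20 and 7.22 for all 5 genes, and the ACKR2-/- 10-week whiskers of Tpsab1 and Prss34 with array 1, at 10.02 and 11.30.

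Tpsb2 averaged 11.43 ± 0.75 on the ACKR2-/- 10-week arrays and 12.08 ± 0.091 on the wild type 10-week arrays, and 6.75 ± 0.11 on the ACKR2-/- 2-week arrays and 10.28 ± 3.07 on the wild type 2-week arrays (SD, n = 3 each). By group mean it was thus highest in wild type at 10 weeks, followed by ACKR2-/- at 10 weeks, wild type at 2 weeks and ACKR2-/- at 2 weeks, and Tpsg1 had the same order. In Cpa3 the ACKR2-/- 10-week arrays led, at 14.25 ± 0.032, before the wild type 10-week arrays, at 13.88 ± 0.26. In Tpsab1 and Prss34 the ACKR2-/- 10-week arrays, at 8.32 ± 1.48 and 8.78 ± 2.19, stood below the wild type 2-week arrays, at 8.47 ± 1.11 and 10.28 ± 3.04. Neighbours in these orders overlapped in their arrays, except the 10-week genotypes in Cpa3, and ACKR2-/- at 10 and at 2 weeks in Tpsab1 and Prss34.

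At 10 weeks of culture, which asks how ACKR2 deficiency bears on mature cultures, none of the 5 genes passed the test. The log2 difference, ACKR2-/- minus wild type, was -3.68 ± 1.35 (SE) for Prss34, -1.05 ± 0.68 for Tpsab1, -0.65 ± 1.14 for Tpsb2, -0.30 ± 1.16 for Tpsg1 and 0.38 ± 1.66 for Cpa3. Adjusted p in limma's moderated test, after Benjamini-Hochberg adjustment over 19938 genes, was 0.555, 0.791, 0.976, 0.999 and 0.999. No gene at all passed (0%), and 1566 had an unadjusted p under 0.05. The median difference was -0.65 over the 5 genes and 0.0076 over all genes. Arrays of the genotypes did not overlap for 2 of the 5 genes, Prss34 downwards and Cpa3 upwards. Over all genes 14.6% did not overlap, 5.98% with all ACKR2-/- arrays below and 8.61% with all above.

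Set against the mean of the wild type 10-week arrays, the ACKR2-/- arrays were uneven. On arrays 2 and 3 Prss34 was 30.6- and 30.8-fold lower, Tpsab1 3.71- and 3.79-fold lower and Tpsb2 2.04- and 2.22-fold lower, whereas on array 1 Prss34 was 2.22-fold lower and the log2 differences of Tpsab1 and Tpsb2 were 0.65 and 0.21. Tpsg1 differed by 0.021, -0.24 and -0.69 log2 units on arrays 1, 2 and 3, and Cpa3 by 0.40, 0.34 and 0.39. In genes as a whole, too, ACKR2-/- array 1 was nearer to the wild type arrays with high mast cell markers than to its own group. The SD over genes of its log2 differences was 0.462 and 0.450 from ACKR2-/- arrays 2 and 3. From those wild type arrays it ran from 0.275, for 2-week array 2, to 0.429, for 10-week array 1. From the ACKR2-/- 2-week arrays it was 0.890 to 0.951, and from wild type 2-week array 3 it was 0.907.

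**Figure D3:**
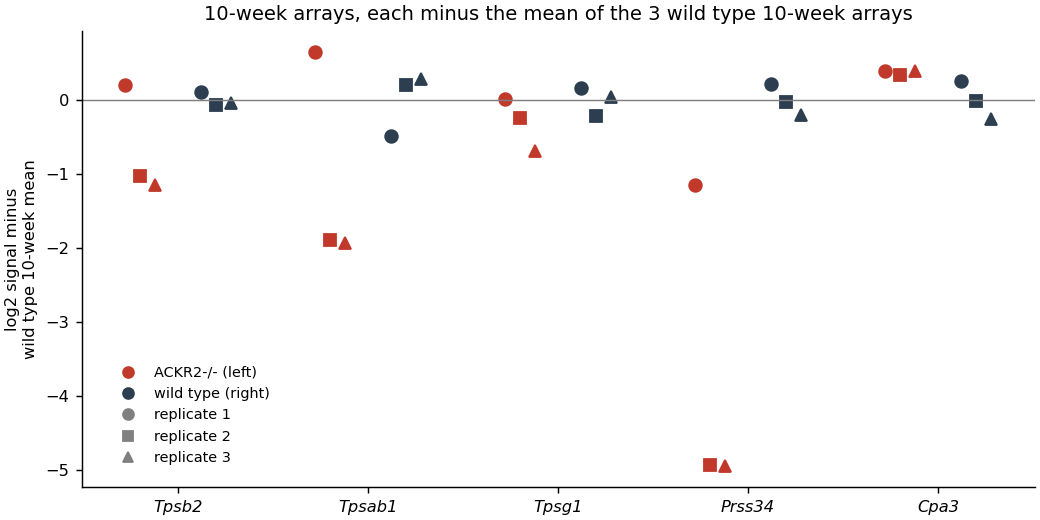
Log2 signal of each 10-week array minus the mean of the 3 wild type 10-week arrays (vertical axis) for the 5 genes; red symbols are ACKR2-/- arrays, dark symbols wild type arrays, and shapes the array numbers. ACKR2-/- arrays 2 and 3 lie at -4.94 and -4.95 for Prss34, at -1.89 and -1.92 for Tpsab1 and at -1.03 and -1.15 for Tpsb2, and ACKR2-/- array 1 lies near or above the wild type arrays for Tpsb2, Tpsab1 and Tpsg1.

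The error of these differences is pooled over the 4 groups, among which the SD was largest on the wild type 2-week arrays for every gene but Tpsab1. Without ACKR2-/- 10-week array 1, Prss34 stood at -4.94 ± 1.28 and Tpsab1 at -1.91 ± 0.51 (adjusted p = 0.171 and 0.184 in the limma fit of the 11 other arrays), and 129 genes passed, none of the 5 among them. With arrays weighted by their spread, Prss34 fell by 4.39 ± 0.65 and Tpsab1 by 1.74 ± 0.41 (limma adjusted p = 0.0018 and 0.0108), beside 5350 genes, or 26.8%, that passed. The weights were 0.22, 4.18 and 0.53 for wild type 10-week arrays 1, 2 and 3, so array 2 dominated that mean. For ACKR2-/- 10-week arrays 1, 2 and 3 they were 0.62, 2.06 and 1.86. Without the 4 arrays apart, which leaves 8, the differences stayed as they were, and the adjusted p in limma was 0.236 for Prss34 and 0.312 for Cpa3, with no gene passing.

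Whether the genotype difference varied from gene to gene was compared over all 10 pairs of the 5 genes at 10 weeks. The difference of Tpsab1 minus that of Prss34 was 2.62, that of Tpsb2 minus Prss34 3.02 and that of Tpsg1 minus Prss34 3.38, and that of Prss34 minus Cpa3 was -4.06. Tpsb2 minus Cpa3 came to -1.03 and Tpsg1 minus Cpa3 to -0.68. Each of these pairs holds Prss34 or Cpa3, whose genotypes already did not overlap singly, so they are no separate observation. They reached p = 0.1 in a two-sided exact permutation test, the smallest that 3 against 3 arrays can give, and 0.167 after adjustment over the 10 pairs, so the design cannot place them under 0.05.

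Markers of other cells also differed between arrays at 10 weeks. Monocyte and macrophage markers (6 genes) averaged 11.12, 7.59 and 8.18 on ACKR2-/- arrays 1, 2 and 3, and 10.29, 12 and 10.99 on the wild type arrays. Basophil markers without Cpa3 and Prss34 (5 genes) averaged 11.00, 9.70 and 9.64 on the ACKR2-/- arrays, and 10.97, 11.15 and 10.99 on the wild type arrays. Mcpt8, which is among these 5 genes and encodes a basophil protease, read 11.81, 7.41 and 7.02 on the ACKR2-/- arrays, and 12.94, 13.24 and 12.51 on the wild type arrays. It made up most of the drop in that average. Cd200r3, Itga2 and Il4 were lower on ACKR2-/- arrays 2 and 3 than on all wild type arrays, but by far less. Fcer1a went the other way, at 14.02, 14.09 and 14.14 on the ACKR2-/- arrays, and 13.87, 13.74 and 13.93 on the wild type arrays. Fcer1a and Cd200r3 also count among the mast cell markers. Neutrophil markers (9 genes) averaged 7.55, 6.91 and 6.80 on the ACKR2-/- arrays, and 9.47, 10.6 and 7.81 on the wild type arrays. Eosinophil markers (6 genes) averaged 7.53, 6.97 and 7.14 on the ACKR2-/- arrays, and 8.63, 8.54 and 7.67 on the wild type arrays. Mast cell markers averaged 13.01, 12.71 and 12.64 on the ACKR2-/- arrays, and 12.89, 12.72 and 12.76 on the wild type arrays. Among the 10-week arrays the other-cell lists were lowest on ACKR2-/- arrays 2 and 3, as were Prss34, Tpsab1, Tpsb2 and Tpsg1 but not Cpa3, and neutrophil and eosinophil markers on ACKR2-/- array 1 also lay below every wild type array. The part of these other cells in the protease values was not tested, and in such bulk samples fewer cells of a type and less RNA per cell cannot be told apart.

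Of the 5 genes, 3 rose at 10 weeks relative to 2 weeks in ACKR2-/-. Cpa3 was 7.81 ± 1.66 higher at 10 weeks, or 224-fold, Tpsg1 5.23 ± 1.16, or 37.4-fold, and Tpsb2 4.67 ± 1.14, or 25.5-fold (limma adjusted p after Benjamini-Hochberg = 0.0146, 0.016 and 0.0212). Prss34 differed by 1.71 ± 1.35 and Tpsab1 by 1.20 ± 0.68, and neither passed (limma adjusted p = 0.452 and 0.278). Over all genes 16.8% passed, 10.5% upwards. All 10-week arrays lay above all 2-week arrays for each of the 5 genes, as for 26.7% of all genes. The median difference of the 5 was 4.67, against 0.058 over all genes.

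All 3 ACKR2-/- 2-week arrays are among the 4 apart, so week of culture and that departure cannot be told apart here. In the same comparison 7 of 9 mast cell markers rose past the threshold and all 6 B cell markers fell past it, beside 16.8% of all genes that passed. All 8 T and NK cell markers were lower, with a median of -3.82, and 2 of them passed. The calls changed with single arrays and with the groups fitted together. In a limma fit of only the 2 ACKR2-/- groups, 5003 of 19938 genes passed, 3 of the 5 among them. Without wild type 2-week array 3, which lies outside this comparison, 4994 genes passed, again 3 of the 5 among them. In the fit of all groups, without ACKR2-/- 10-week array 2 or 3 no gene of the 19938 passed. Cpa3 then had a limma adjusted p of 0.0557 and 0.0584, although its difference was 7.83 and 7.80. Without ACKR2-/- 2-week array 2 only Cpa3 of the 5 passed, and Tpsb2 missed the threshold without ACKR2-/- array 1 of either week (limma adjusted p = 0.0604 and 0.0608).

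At 2 weeks the 5 genes were lower on the ACKR2-/- arrays by group mean, with Cpa3 at -5.09 ± 1.66, Tpsg1 at -3.66 ± 1.16, Tpsb2 at -3.52 ± 1.14, Prss34 at -3.21 ± 1.35 and Tpsab1 at -1.35 ± 0.68. None passed limma's adjusted test, with adjusted p between 0.225 and 0.335, and neither did any other gene (0%). Unadjusted p was under 0.05 for 3480 genes. Only Tpsab1 had all ACKR2-/- arrays below all wild type arrays, as had 8.6% of all genes. Wild type array 3 decided this. Without it all 5 genes passed, Cpa3 at -7.75 ± 0.14, Tpsg1 at -5.50 ± 0.21, Tpsb2 at -5.29 ± 0.32, Prss34 at -4.96 ± 0.91 and Tpsab1 at -1.97 ± 0.64 (limma adjusted p = 2e-10, 4.1e-08, 1.5e-06, 0.0027 and 0.049). In that fit 23.8% of all genes passed, 13.5% downwards, and all 3 ACKR2-/- arrays in it have low mast cell markers. With arrays weighted by their spread all 5 passed as well, beside 42% of all genes.

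Between 10 and 2 weeks in wild type, differences were 2.35 ± 1.66 for Cpa3, 2.18 ± 1.35 for Prss34, 1.87 ± 1.16 for Tpsg1, 1.80 ± 1.14 for Tpsb2 and 0.90 ± 0.68 for Tpsab1. None of the 5 passed (limma adjusted p = 0.784 to 0.788), and no gene did (0%), with 1326 genes at an unadjusted p under 0.05. These values contain wild type 2-week array 3. Without the 4 arrays apart, Tpsb2 differed by 0.034, Tpsg1 by 0.031, Tpsab1 by 0.28 and Prss34 by 0.43, while Cpa3 turned round to -0.32 ± 0.15, and none passed. Between same-numbered wild type arrays 1 and 2, 10 minus 2 weeks came to 0.38 and 0.67 for Prss34, 0.051 and 0.23 for Tpsab1, 0.13 and -0.027 for Tpsb2, 0.078 and -0.063 for Tpsg1, and 0.0031 and -0.39 for Cpa3. Array 3 gave 2.43 to 7.43 for the 5 genes, its 2-week array being 1 of the 4 apart.

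The comparisons above share arrays in pairs and are not independent of each other. The genotype by week interaction asks whether the genotype difference at 10 weeks exceeds that at 2 weeks. It was 5.46 ± 2.34 for Cpa3, 3.36 ± 1.63 for Tpsg1, 2.87 ± 1.61 for Tpsb2, 0.30 ± 0.97 for Tpsab1 and -0.47 ± 1.90 for Prss34. None passed (limma adjusted p = 0.427 to 0.964), nor did any gene (0%), with 2271 at an unadjusted p under 0.05. Without wild type 2-week array 3, Cpa3, Tpsg1 and Tpsb2 passed, at 8.13, 5.20 and 4.64, as did 15.7% of all genes, and with array weights the same 3 passed, as did 36.8%.

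Along the tryptase locus the differences were not shared by every gene. Between 10 and 2 weeks in ACKR2-/-, Tpsg1 and Tpsb2 rose, whereas Prss28 and Prss29, serine protease genes between Prss34 and Tpsab1 that are known from the uterus, differed by 0.24 ± 0.19 and 0.12 ± 0.12, and Cacna1h by -0.25 ± 0.20. Prss28 read 6.65 to 7.33 on the ACKR2-/- 10-week arrays and 6.61 to 6.85 on the ACKR2-/- 2-week arrays, which are among the 4 apart. Over all 12 arrays Prss28 stayed between 6.61 and 7.46, Prss29 between 6.96 and 7.48 and Cacna1h between 7.45 and 8.33. The 4 tryptase genes read 6.63 to 7.22 on the 4 arrays apart. Whether Prss28, Prss29 and Cacna1h were expressed at all is unknown, because detection calls were not used. At 10 weeks Prss28 differed by -0.39 ± 0.19, Prss29 by -0.11 ± 0.12 and Cacna1h by -0.50 ± 0.20 between the genotypes, none past the threshold. Of 11 measured genes of related serine proteases, including Prss28 and Prss29, none passed in any of the 5 contrasts, and their differences between 10 and 2 weeks in ACKR2-/- ran from -1.04 to 0.24.

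**Figure D4:**
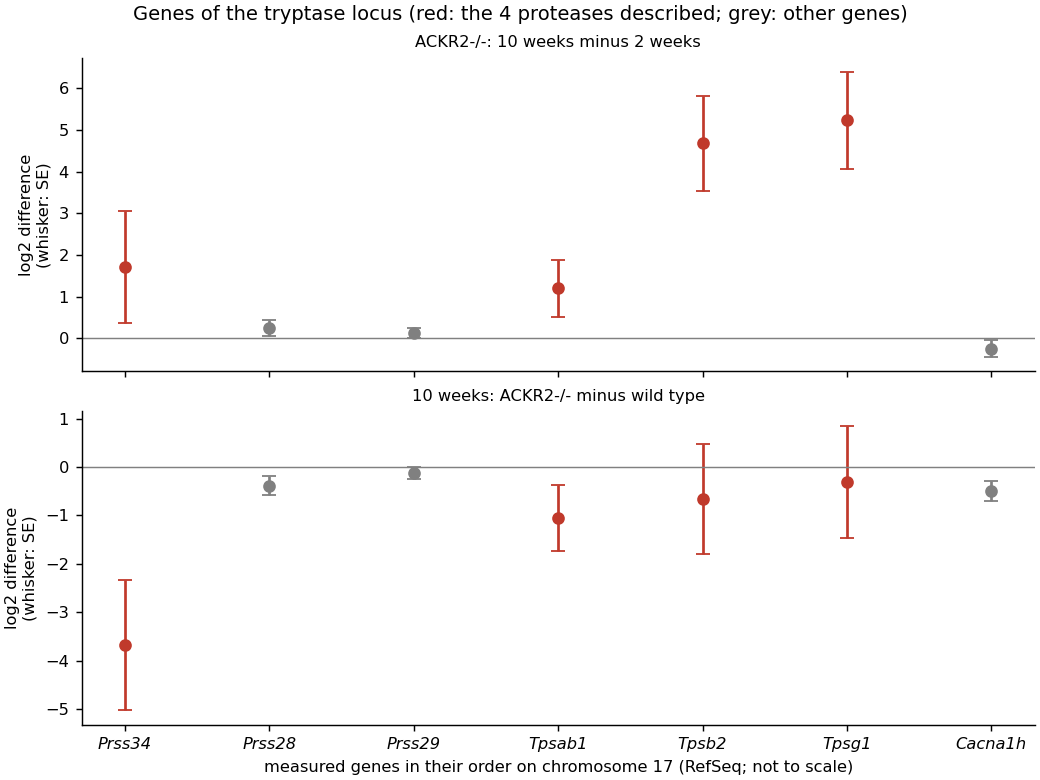
Log2 differences with limma's SE (vertical axis) for the measured genes of the tryptase locus in their RefSeq order on chromosome 17 (horizontal axis, not to scale), for 10 minus 2 weeks in ACKR2-/- (top) and ACKR2-/- minus wild type at 10 weeks (bottom). In the top panel Tpsb2 and Tpsg1 stand at 4.67 and 5.23 while Prss28, Prss29 and Cacna1h lie near 0, and in the bottom panel Prss34 stands lowest at -3.68.

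Genes that make, store or control these proteases were described by role, with the lists chosen in knowledge of earlier results. Counts between 10 and 2 weeks in ACKR2-/- stand beside the 16.8% of all genes that passed there, 10.5% upwards. Of 13 measured chymase locus genes, 3 rose between 10 and 2 weeks in ACKR2-/-: Gzmb, the granzyme B gene, by 5.67 ± 1.16, Cma1, whose chymase is stored with Cpa3, by 5.40 ± 1.11, and Gzmc by 0.42 ± 0.11. Of 12 processing and storage genes, Slc18a2, the vesicular monoamine transporter gene, rose by 6.59 ± 1.31, Ndst2, needed for heparin sulfation, by 2.97 ± 0.58 and Hs6st1, a heparan sulfate sulfotransferase gene, by 0.90 ± 0.18, and the cathepsin S gene Ctss fell by 3.35 ± 0.99. Of 10 transcription factors 7 rose and 1 fell, beside the same 16.8% of all genes. Among them Gata2 rose by 5.98 ± 1.30, Gata1 by 3.69 ± 0.71, Mitf by 3.36 ± 0.62 and Tal1 by 3.00 ± 0.67, all factors of the mast cell lineage. Median differences were 0.42 for the chymase locus, 0.12 for processing and storage and 1.33 for the factors.

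Of 14 other carboxypeptidase genes, 3 rose and 2 fell in the same comparison, in which 16.8% of all genes passed, with Cpd at 2.52 ± 0.50, Cpe at 1.48 ± 0.38 and Cpb1, the neighbour of Cpa3, at 0.91 ± 0.27 upwards and Cpm at -4.56 ± 0.92 and Cpq at -1.70 ± 0.41 downwards. Of 7 inhibitors, Lxn, which encodes a carboxypeptidase inhibitor, rose by 3.57 ± 0.78 and Serpinb6a by 2.04 ± 0.32, and Spint2, a serine protease inhibitor, fell by 2.02 ± 0.47. Of 12 receptors and substrates 3 rose, against 10.5% of all genes: Mrgprb2, a mast cell receptor for cationic peptides, by 6.01 ± 1.20, and the thrombin receptor genes F2r by 2.69 ± 0.57 and F2rl2 by 2.42 ± 0.45. Median differences were 0.11 for the carboxypeptidases, -0.035 for the inhibitors and 0.12 for the receptors and substrates.

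In none of these lists did a gene pass between the genotypes at 10 weeks. The genes with the lowest p included Mcpt8 at -4.15 ± 1.67 and the chymase gene Mcpt4 at -3.22 ± 1.30, Cebpa, a myeloid factor, at -2.48 ± 0.67, Ctss at -2.72 ± 0.99 and Slpi, a leukocyte protease inhibitor, at -1.41 ± 0.34 (limma adjusted p = 0.480 to 0.582). Cma1 read 11.37, 12.10 and 12.14 on the ACKR2-/- 10-week arrays, and 11.96, 11.07 and 11.28 on the wild type 10-week arrays, so the chymase partner of Cpa3 overlapped between the genotypes. Gata2 read 13.77, 13.65 and 13.71 on the ACKR2-/- arrays, and 13.77, 13.72 and 13.75 on the wild type arrays, and overlapped too. Mitf read 11.13, 11.09 and 11.07 on the ACKR2-/- arrays, and 10.92, 10.67 and 10.66 on the wild type arrays. All its ACKR2-/- arrays lay above, as for 8.61% of all genes. Cma1, Gata2 and Mitf were added here after their values were seen.

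The genes most like each member across arrays were found by Pearson's r, given as a description. Over all 12 arrays the points share the 4 arrays apart, on which all 5 genes were low, and for Prss34 and Tpsab1 ACKR2-/- 10-week arrays 2 and 3 were low as well. Among 6088 genes spanning at least 1 log2 unit, Cpa3 was most like Tph1, which starts serotonin synthesis, and the IgE receptor genes Ms4a2 and Fcer1a, each at r = 0.999. Tpsg1 was most like Mamdc2 (0.998), Cd34 and Ctnna1 (both 0.997), Tpsb2 most like Rec8, Slc16a3 and Nampt (0.995 each), Tpsab1 most like Upp1 (0.984), Fkbp9 (0.980) and Mrgpra6 (0.979), and Prss34 most like Mcpt8 (0.995), Mgl2 (0.995) and Ptgir (0.994).

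Over the 6 arrays of 10 weeks, where about 2120 genes spanned that range and where the points share 3 arrays per genotype, other genes led. Prss34 was most like Pcbp3 (0.999), Mcpt8 (0.996) and Slpi (0.994), and Tpsab1 most like Rbpms (0.997), the cathepsin L gene Ctsl (0.996) and Epas1 (0.995). Ctsl read 10.87, 7.47 and 7.57 on the ACKR2-/- arrays, and 9.20, 10.50 and 10.60 on the wild type arrays, so ACKR2-/- array 1 was the highest of the 6, as it was in Tpsab1. Tpsb2 was most like Xk (0.996), Cpq (0.995) and Tcf4 (0.993). Tpsg1 was most like P2ry10 (0.961), Oasl2 (0.960) and Eomes (0.949), and Cpa3 most like Stap1 (0.984), Zfp931 (0.981) and Zfp942 (0.979). Between members, r over these 6 arrays was 0.945 for Tpsb2 and Prss34 and 0.939 for Tpsb2 and Tpsab1, and -0.387 for Tpsb2 and Cpa3, whose values spanned only 0.65.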

How the data were processed

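RNA of 12 samples labelled as mast cell cultures was hybridised to single-colour oligonucleotide arrays. By the labels there were 3 in each of 4 groups of genotype and week of culture. The deposited table holds 35399 probe sets as log2 values. Per the submitters' processing notes the authors used Partek 6.5 and RMA, a method that subtracts background, gives all arrays 1 distribution and combines the probes of a set. The table carries no detection calls, and scanner files were not used here, so signal over background and scan batches were not examined. Values ran from 2.66 to 14.91 and array medians from 7.76 to 7.90. The genome build behind the probe sets is not given in the sources used here. The platform annotation gave 1 symbol to 21789 probe sets, several to 1621, which were not named, and none to 11989. For the 999 genes with several probe sets the one with the highest mean was kept, which left 19938 genes.

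In R 4.3.3, limma 3.58.1 fitted group means to the 12 arrays together (lmFit and eBayes, 8 residual and 2.392 prior degrees of freedom). P-values were adjusted by the Benjamini-Hochberg method over all genes, with 0.05 as threshold. The procedure was tested on simulated data with equal spread in all groups and no arrays apart. That test does not cover the unequal spread of these arrays. No array pair was a duplicate: at most 8 genes had identical values. The number of arrays limits the precision.

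The 5 genes and the gene lists were chosen with earlier results of these data known. Named genes are the 5 in every contrast, from each list up to 4 past the threshold with the largest change, or the 2 with the lowest p, and the 3 genes most like each of the 5. The last leave out predicted, small RNA and olfactory genes. Values of further genes (Cma1, Gata2, Mitf, Ctsl and the neighbours on chromosome 17) were added after they were seen. The rule used for pairing by replicate number asked for every same-numbered correlation of deviations above 0.1. Only wild type at 10 and 2 weeks met it, at 0.166 to 0.359, against -0.266 to 0.0232 for different numbers. The 0.166 belongs to number 3, whose 2-week array is 1 of the 4 apart. Xist read 13.11 on wild type 10-week array 3 and 5.77 on wild type 2-week array 3. Meeting the rule therefore does not show that the numbers mark shared animals or cultures. Alternatives left out each array or the 4 arrays apart, used only the groups compared, the replicate number as a block, array weights, renewed quantile normalization, median centring, the mean of a gene's probe sets, or genes above the median gene.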

Additional observations from a re-analysis of the deposited data

How the results depend on the processing

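Of 485 alternative values for the 5 genes, 448 kept their direction and their side of the threshold, 18 passed newly, 10 no longer passed and 9 changed sign. Many of the 485 could not change direction, because leaving out an array of another group leaves a difference of 2 groups as it is. Where none of the 5 passed at first, keeping the side meant only not passing. The count is therefore no measure of robustness. At 2 weeks, ACKR2-/- against wild type, leaving out arrays in turn gave 0 to 4738 genes past the threshold (4738 without wild type array 3, 1 without ACKR2-/- array 3) and 0 to 5 of the 5; array weights gave 8366 and 5. At 10 weeks the same gave 0 to 129 (129 without ACKR2-/- array 1) and 0 of the 5, and array weights 5350 and 2. For 10 against 2 weeks in wild type, no array left out brought a call (Cpa3 ran from -0.32 to 3.71), while array weights gave 1737 genes; the sign of Cpa3 turned to -0.32 without array 3 of 2 weeks or without the 4 arrays apart, and to -0.060 with array weights. For 10 against 2 weeks in ACKR2-/-, where 3358 genes passed, leaving out arrays gave 0 to 4994 and 0 to 3 of the 5, and array weights 8914. The lower counts were 0 without 10-week array 2 or 3, 1514 without 2-week array 1 and 1391 without 2-week array 2. For the interaction leaving out arrays gave 0 to 3138 and 0 to 3 of the 5 (3138 without wild type 2-week array 3, 29 without ACKR2-/- 10-week array 1), and array weights 7330 and 3. With arrays left out it ran from -1.73 to 1.28 for Prss34 and from -0.55 to 0.92 for Tpsab1. Its sign turned for Prss34 to 0.16, 0.17 and 1.28 without ACKR2-/- 10-week array 2 or 3 or wild type 2-week array 3, and to 0.34 with array weights, and for Tpsab1 to -0.55 and -0.14 without ACKR2-/- 10-week array 1 or wild type 2-week array 2. The cause was not tested. With the replicate number as a block, 2897 genes passed for 10 against 2 weeks in ACKR2-/- (3 of the 5) and 0 elsewhere, and no call of the 5 genes changed. A block in the wild type arrays alone, chosen after seeing the data, also gave 0. Contrasts with the ACKR2-/- 2-week arrays have no value without the 4 arrays. Detection calls were not used here, so how far low signals lie above background is unknown.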

Other observations

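Mcpt1, Mcpt2 and Mcpt4, chymase genes outside the 5 that were picked after their values were seen, differed more between the wild type 10-week arrays than the chymase gene Cma1, which read 11.96, 11.07 and 11.28 on arrays 1, 2 and 3. Mcpt2 read 12.75, 10.63 and 8.61 on wild type 10-week arrays 1, 2 and 3, and 12.54 and 10.95 on wild type 2-week arrays 1 and 2. Mcpt4 read 12.66, 11.21 and 9.05 at 10 weeks, and 12.33 and 10.90 at 2 weeks on the same arrays. Mcpt1 read 9.09, 6.91 and 5.91 at 10 weeks, and 8.51 and 7.36 at 2 weeks. Wild type 2-week array 3, 1 of the 4 apart, read 4.77, 6.5 and 5.64 for Mcpt2, Mcpt4 and Mcpt1. Mrgprb2, a mast cell receptor gene, ran the other way, at 8.77, 9.70 and 12.17 on the wild type 10-week arrays 1, 2 and 3, and 8.92 and 9.64 on wild type 2-week arrays 1 and 2. Over the wild type 10-week arrays, Tpsb2 lay between 12.02 and 12.19 and Cpa3 between 13.63 and 14.14.

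Among the 4 arrays apart, ACKR2-/- 2-week arrays 1 and 2 and wild type 2-week array 3 were the most alike of all 12. The SD over genes of the log2 difference was 0.142 between the ACKR2-/- arrays 1 and 2, and 0.174 and 0.164 between each of them and wild type array 3. The next most alike pair, ACKR2-/- 10-week arrays 2 and 3, had 0.228. ACKR2-/- 2-week array 3 stood 0.521 and 0.527 from its own group. Cpa3 read 6.40 and 6.45 on ACKR2-/- 2-week arrays 1 and 2, and 6.20 on wild type 2-week array 3.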
